A study of Mus musculus with 6 samples.

Results

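Cells obtain cholesterol by making it from acetyl-CoA or by taking it up in lipoproteins, and they remove it by handing it to carriers outside the cell. When sterol is scarce in the endoplasmic reticulum (ER), the escort protein SCAP carries the transcription factor SREBP2 to the Golgi, where it is cut free and turns on the synthesis enzymes. When sterol is plentiful, INSIG proteins hold SCAP back, and oxysterols activate the liver X receptors (LXRs), which turn on the exporters ABCA1 and ABCG1. Endothelial cells (ECs) line vessels and are in direct contact with plasma lipoproteins.

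This set of 32 mouse genes was chosen by role, with no measured value in the rule but with earlier results of these data known. It holds 8 enzymes from acetyl-CoA to squalene, 10 enzymes from squalene to cholesterol, 6 genes of the SREBP system, 3 genes of lipoprotein lipid uptake and lysosomal export, and 5 genes of the LXR and efflux arm. Of the 32 genes, 30 had a probe set on the array that carried only their symbol, out of 18194 genes with such a probe set. Acat2 and Nr1h2 were not analysed here. Where a gene had several probe sets, the one with the highest mean over the 6 arrays was used, and no probe set used for the 30 genes was near background, set at a mean log2 level of 7.48 from olfactory receptor probe sets.

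The arrays held RNA of ECs from lungs of female NSG mice, sorted by flow cytometry as CD31+ cells after removal of cells with GFP (cancer cells), CD45 or CD11b (blood cells), EpCAM (epithelium) and CD140a or CD140b (fibroblasts and pericytes). NSG is a strain without T, B and natural killer cells. The mice received MDA231-LM2 cells, a derivative of human MDA-MB-231 breast cancer cells that metastasises to lung, into a vein at an age of 6 to 8 weeks, and lungs were taken 3 weeks later, when they held metastases. The cancer cells carried a control short hairpin RNA (shControl, 3 arrays) or a hairpin against tenascin C, an extracellular matrix protein (shTNC, 3 arrays). The comparison asks how ECs differ between lungs that received these cancer cells. The paper reports that tenascin C knockdown also lowered colonization of the lung. Less tenascin C and a smaller load of metastases thus cannot be told apart in this design. The hairpin acts in human cells, so the mouse array does not check the knockdown, and the labels call the arrays biological replicates without stating how many mice each one stands for. The p-values measure the spread between these samples.

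All 10 endothelial marker genes were above background, and their summed log2 level lay between 16.92 and 16.99 in shControl and between 16.93 and 16.95 in shTNC. Of 10 macrophage and monocyte markers, 3 (Adgre1, Ccr2 and Itgam) were near background. By value 9 were lower in shTNC, where 58.3% of all genes were, and Ccr2 was higher, by 0.40 on the log2 scale. At an unadjusted p under 0.05, 3 were lower, where 7.12% of all genes were. The shControl arrays summed to 13.25 to 13.37 and the shTNC arrays to 12.85 to 13.31. Epithelial markers, all 9 measured ones above background, summed to between 13.94 and 14.40 in shControl and between 13.41 and 14.59 in shTNC. The arrays within a group thus differed as much as the groups. The 8 fibroblast markers summed to 13.39 to 13.78 in shControl and 13.63 to 13.93 in shTNC. The 6 pericyte and smooth muscle markers summed to 12.11 to 12.23 and 12.21 to 12.53, with 3 lower and 3 higher by value. At an unadjusted p under 0.05, 1 of these 6 was higher (Myh11, by 0.50), where 4.54% of all genes were. All 7 measured markers of cycling cells were lower in shTNC at an unadjusted p under 0.05, with a median difference of -0.74, and their sum was highest on shControl 2. On the first principal component, which held 36.6% of the variance, shControl 2 lay at -43.6, the other shControl arrays at -11.1 and 0.25, and the shTNC arrays between 16.1 and 21.1. In sorted bulk RNA, fewer cells of a type and less RNA per cell cannot be told apart.

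The cholesterol genes differed little between ECs from shControl and shTNC lungs. The median difference over the 30 genes was 0.045 on the log2 scale (shTNC minus shControl), against -0.030 over all genes, and the median absolute difference was 0.091, against 0.10 over all genes. The median of the 30 genes ran from -0.0074 (without shControl 2) to 0.069 (without shTNC 2) when 1 array was left out, so its sign depended on shControl 2. No cholesterol gene passed limma at an adjusted p under 0.05, a rule that called 0% of the 45101 probe sets. At an unadjusted p under 0.05, 1 of 30 was lower in shTNC (Abca1), where 7.12% of all genes were, and 1 of 30 was higher (Nsdhl), where 4.54% of all genes were. The groups did not overlap for 1 gene that was lower (Abca1), against 12.4% of all genes, and for 3 that were higher (Nsdhl, Sc5d and Npc2), against 7.36%. With 30 genes, these counts do not set the cholesterol genes apart from that background. All differences below are in log2 units, shTNC minus shControl, with the SE of the limma fit and n = 3 arrays per group, and adjusted p-values are those of limma after Benjamini-Hochberg correction across the whole array.

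**Figure D1:**
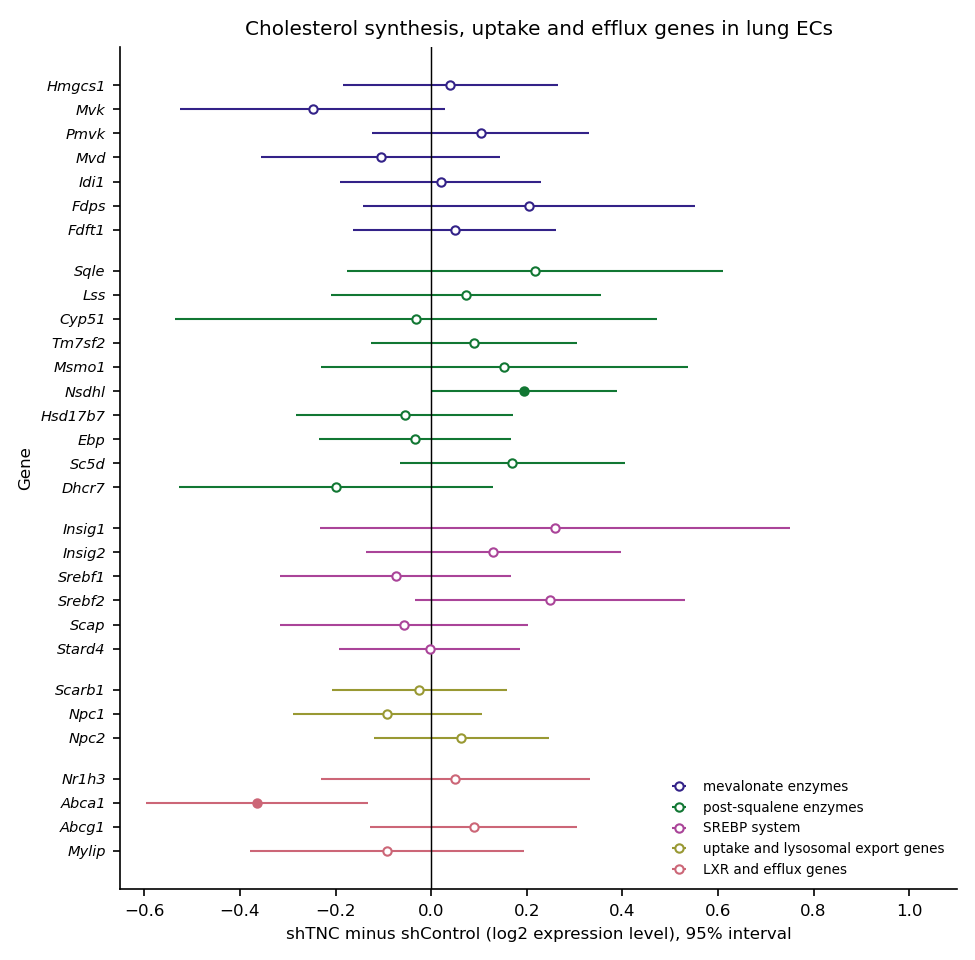
Difference in log2 expression level (shTNC minus shControl, x axis) for the 30 measured cholesterol genes (y axis), grouped by role in colour. Points are estimates from 3 arrays per group, bars are 95% confidence intervals, and filled points (Nsdhl and Abca1) have an unadjusted p under 0.05. All other intervals hold 0.

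The enzymes that build squalene from acetyl-CoA units differed by -0.25 to 0.20, with a median of 0.040. Of the 7 measured, 2 were lower and 5 higher by value, none at an unadjusted p under 0.05. Hmgcs1, which makes HMG-CoA, was at 11.68, 11.53 and 11.71 in shControl and at 11.74, 11.55 and 11.75 in shTNC. Each group thus held 1 lower array and a pair of higher ones, and the difference was 0.040 ± 0.098 with a 95% confidence interval of -0.19 to 0.27. Idi1, which isomerises the isoprenoid building block, was at 10.71, 10.52 and 10.72 in shControl and at 10.71, 10.63 and 10.66 in shTNC, a difference of 0.020 (-0.19 to 0.23). The shTNC arrays lay inside the shControl range.

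Both genes had other probe sets with larger differences. A further Idi1 probe set, 1423804_a_at, read 10.30, 9.67 and 10.23 in shControl and 10.55, 10.43 and 10.46 in shTNC. Every shTNC array was above every shControl array there, by 0.41 ± 0.16 in the mean (adjusted p = 0.35), and the difference was 0.21 without shControl 2, the lowest array by a wide margin. Without any 1 of the shTNC arrays its unadjusted p was over 0.05. For Hmgcs1, probe sets 1433445_x_at and 1433444_at gave 0.29 ± 0.14 and 0.29 ± 0.15, which became 0.15 and 0.12 without shControl 2. Hmgcs1 probe set 1433446_at gave 0.027 ± 0.12, which became -0.054 without shControl 2, and 1441536_at gave 0.11 ± 0.16.

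The other enzymes of this stretch went both ways. Mvk, mevalonate kinase, had the most negative difference of the synthesis enzymes, with 10.38, 10.82 and 10.56 in shControl and 10.38, 10.36 and 10.27 in shTNC. Its difference was -0.25 ± 0.12 (-0.53 to 0.030, adjusted p = 0.43), but -0.13 without shControl 2, where it was highest. The other Mvk probe set, 1430619_a_at, gave -0.19 ± 0.17, and 0.0074 without shControl 2. Mvd, which decarboxylates the mevalonate product, differed by -0.11 ± 0.11, and Pmvk, the kinase between Mvk and Mvd, by 0.10 ± 0.10. Fdps, which makes farnesyl diphosphate, differed by 0.20 ± 0.15 (0.093 without shControl 2), and Fdft1, squalene synthase, by 0.049 ± 0.093.

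Of the 10 enzymes that turn squalene into cholesterol, 4 were lower and 6 higher by value, with a median of 0.082. Nsdhl, which takes part in removing the C4 methyl groups of the sterol ring, was at 11.01, 10.97 and 11.08 in shControl and at 11.14, 11.23 and 11.27 in shTNC. The groups did not overlap, and the difference was 0.19 ± 0.08 (0.00012 to 0.39, adjusted p = 0.39), 14.4% higher on the linear scale. It stayed between 0.17 and 0.23 when any 1 array was left out, but its unadjusted p was under 0.05 only without shControl 3 among those 6 fits. Sc5d, the lathosterol desaturase, was at 10.26, 10.03 and 10.30 in shControl and at 10.45, 10.33 and 10.31 in shTNC. The lowest shTNC array was just above the highest shControl array, and the difference of 0.17 ± 0.10 (adjusted p = 0.51) became 0.086 without shControl 2. On further Sc5d probe sets, 1424709_at (0.22) and 1451457_at (0.15), the groups overlapped.

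Sqle, squalene epoxidase, which catalyses the first oxygenation step, was at 10.58, 10.11 and 10.77 in shControl and at 10.73, 10.53 and 10.85 in shTNC. The groups overlapped, and the difference of 0.22 ± 0.17 (-0.18 to 0.61) became 0.028 without shControl 2. Cyp51, the lanosterol demethylase, was at 10.39, 9.68 and 10.57 in shControl and at 10.37, 9.98 and 10.21 in shTNC. The shControl range contained all shTNC arrays, with a difference of -0.032 ± 0.22 (-0.54 to 0.47) that became -0.30 without shControl 2. Msmo1, the C4-methylsterol oxidase, differed by 0.15 ± 0.17 and by -0.054 without shControl 2.

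The remaining enzymes were Lss, lanosterol synthase (0.074 ± 0.12), Tm7sf2, a sterol reductase (0.089 ± 0.094), Hsd17b7, a ketosteroid reductase (-0.055 ± 0.099), Ebp, the sterol isomerase (-0.033 ± 0.087), and Dhcr7, which makes cholesterol from 7-dehydrocholesterol (-0.20 ± 0.14). Dhcr7 was at 10.50, 10.44 and 10.80 in shControl and at 10.64, 10.21 and 10.30 in shTNC, which overlapped, and its difference ran from -0.33 without shTNC 1 to -0.087 without shControl 3. Further probe sets above background gave the other sign for Hsd17b7 (1448865_at, 0.046, and 1417871_at, 0.094), Lss (1420013_s_at, -0.019) and Fdft1 (1438918_at, -0.17).

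**Figure D2:**
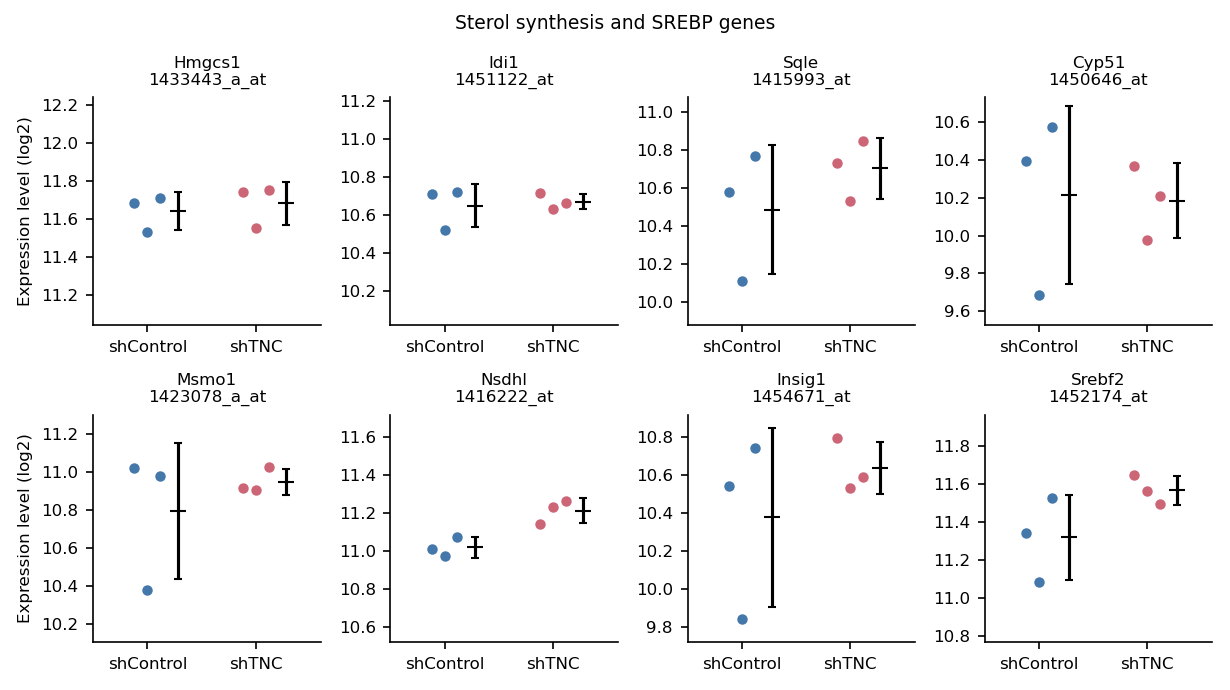
Log2 expression level (y axis, the same span of units in each panel) on the 3 shControl and 3 shTNC arrays (points) for 6 synthesis enzymes, Insig1 and Srebf2, with the mean and SD of each group in black and the probe set above each panel. For Sqle, Cyp51, Msmo1 and Insig1 the widest gap is that between 1 low shControl array and the other arrays, and Nsdhl has groups that do not overlap.

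SREBPs act together with NF-Y, a factor that reads the CCAAT box, and 3 enzyme promoters are shown for these letters, Hmgcs1 for both and Cyp51 and Nsdhl for the CCAAT box alone. In the 250 bases before the RefSeq start (build GRCm38.p6), searched on both strands, a CCAAT box (CCAAT) was found in 14 of 15 synthesis enzymes with a window, all but Acat2, and in 20 of 25 of all the cholesterol genes with one, against 37.5% of all genes. The SRE core of the classical sterol response element (TCACNCCAC) was found in Hmgcs1 alone among the 25, against 1.22% of all genes, and the E-box CACGTG in 6 of 25, against 6.86%. The windows below, in capitals where a motif matched, are those of Hmgcs1 (chr13:119690101-119690350, plus strand), with the SRE core 137 to 129 bases before the start and 3 CCAAT boxes, Cyp51 (chr5:4104698-4104947, minus strand), with 1 CCAAT box, and Nsdhl (chrX:72918271-72918520, plus strand), with a pair of CCAAT boxes. ATTGG is the CCAAT box on the other strand. A match describes letters and is no measured binding site.
Hmgcs1 promoter: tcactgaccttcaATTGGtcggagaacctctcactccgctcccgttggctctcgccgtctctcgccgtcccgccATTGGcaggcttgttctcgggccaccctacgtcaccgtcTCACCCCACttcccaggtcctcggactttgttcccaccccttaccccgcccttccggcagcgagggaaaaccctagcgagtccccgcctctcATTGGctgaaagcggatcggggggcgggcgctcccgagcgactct
Cyp51 promoter: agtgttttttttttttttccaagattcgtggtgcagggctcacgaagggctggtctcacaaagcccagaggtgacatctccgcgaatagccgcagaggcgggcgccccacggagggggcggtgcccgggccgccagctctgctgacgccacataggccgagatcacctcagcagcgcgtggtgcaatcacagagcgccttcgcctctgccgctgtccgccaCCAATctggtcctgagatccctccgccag
Nsdhl promoter: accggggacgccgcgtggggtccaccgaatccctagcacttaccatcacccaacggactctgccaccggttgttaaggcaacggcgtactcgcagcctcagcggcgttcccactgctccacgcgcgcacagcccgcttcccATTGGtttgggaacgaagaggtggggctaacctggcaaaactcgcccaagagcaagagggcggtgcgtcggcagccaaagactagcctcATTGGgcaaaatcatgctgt

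In the SREBP system, 3 of 6 genes were higher and 3 lower by value, with a median of 0.064 and none at an unadjusted p under 0.05. Insig1, an ER anchor of SCAP and itself a target of SREBP2, was at 10.54, 9.84 and 10.74 in shControl and at 10.79, 10.53 and 10.59 in shTNC. The shTNC arrays were close together and the shControl arrays were spread by the low value of shControl 2, which gave 0.26 ± 0.21 (-0.23 to 0.75) with that array and -0.0075 without it. Srebf2, which encodes SREBP2, was at 11.35, 11.09 and 11.53 in shControl and at 11.65, 11.56 and 11.50 in shTNC. The groups overlapped by the shControl 3 and shTNC 3 arrays, and the difference was 0.25 ± 0.12 (-0.033 to 0.53, adjusted p = 0.43). The second Srebf2 probe set, 1426744_at, gave 0.30 ± 0.16, and without shControl 2 both probe sets gave 0.13.

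Srebf1, which encodes the isoforms SREBP1a and SREBP1c, was at 11.31, 11.30 and 11.52 in shControl and at 11.43, 11.27 and 11.20 in shTNC. Scap was at 11.86, 11.70 and 12.10 in shControl and at 11.82, 11.84 and 11.82 in shTNC. Both groups overlapped for both genes, with differences of -0.074 (-0.32 to 0.17) and -0.056 (-0.32 to 0.20). Insig2, the second ER anchor, differed by 0.13 ± 0.12 (0.012 without shControl 3) and another of its probe sets, 1417982_at, by -0.087. Stard4, a soluble sterol carrier, differed by -0.0030 ± 0.082, and its further probe sets 1429240_at and 1429239_a_at by 0.067 and 0.016. The Insig1 promoter is shown beside those of the enzymes for its E-box, 101 to 96 bases before the start, and its CCAAT box (chr5:28071162-28071411, plus strand, GRCm38.p6).
Insig1 promoter: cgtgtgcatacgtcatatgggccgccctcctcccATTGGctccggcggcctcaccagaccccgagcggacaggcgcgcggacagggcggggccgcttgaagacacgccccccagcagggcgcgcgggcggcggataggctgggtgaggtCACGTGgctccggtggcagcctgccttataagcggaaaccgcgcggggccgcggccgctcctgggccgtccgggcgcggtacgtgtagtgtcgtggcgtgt

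The spread among the shControl arrays was common to many genes of the pathway. On shControl 2, 10 of the 17 synthesis enzymes (58.8%) had their lowest level of the 6 arrays, where 16.4% of all genes did, and their median deviation from the gene's mean was -0.13. The same array held the highest level of 32.7% of all genes but of 2 of the 17 enzymes (11.8%). The most negative deviations were those of Insig1, Cyp51, Msmo1 and Sqle. The medians of the synthesis enzymes on the other arrays lay between -0.054 (shTNC 2) and 0.10 (shTNC 1). shControl 2 was also the array with the highest summed level of the cycling markers, 14.13 against 13.49 and 13.81 on the other shControl arrays and 12.99 to 13.14 on the shTNC arrays, and the part of this in the sterol enzymes was not tested. Without shControl 2 the median of the first 7 enzymes was -0.016, that of the later 10 was 0.012 and that of the SREBP system was -0.015.

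**Figure D3:**
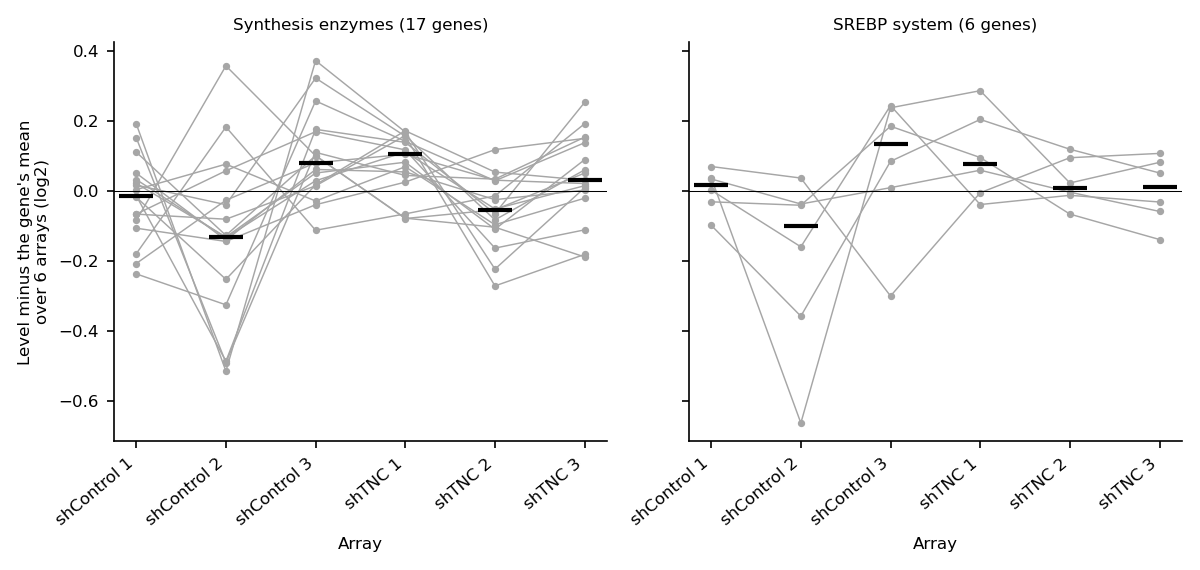
Deviation of each gene's log2 level from its mean over the 6 arrays (y axis) on each array (x axis) for the 17 synthesis enzymes and the 6 genes of the SREBP system. Grey lines join the points of 1 gene and black bars are the medians, which are lowest on shControl 2 at -0.13 and -0.10.

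The uptake and lysosomal genes differed by -0.092 to 0.063, with a median of -0.025. Scarb1, which encodes SR-BI, the receptor that takes cholesterol from high-density lipoprotein, was at 13.83, 13.80 and 13.86 in shControl and at 13.80, 13.84 and 13.77 in shTNC. The arrays of both groups were interleaved, with a difference of -0.025 ± 0.080 and a 95% confidence interval of -0.21 to 0.16. A second Scarb1 probe set, 1437378_x_at, gave 0.051. Npc2, which binds cholesterol inside the lysosome, was at 13.21, 13.30 and 13.24 in shControl and at 13.30, 13.31 and 13.32 in shTNC. Its groups were just apart, by 0.063 ± 0.079 (-0.12 to 0.25, adjusted p = 0.77). On further Npc2 probe sets above background, 1416901_at (0.091) and 1455768_at (0.026), the groups overlapped. Npc1, the membrane protein that NPC2 hands cholesterol to, differed by -0.092 ± 0.086 (-0.29 to 0.11).

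Abca1, which loads cholesterol and phospholipid onto apolipoprotein A-I, had the largest difference of the 30 genes in either direction. It was at 11.95, 12.05 and 11.99 in shControl and at 11.46, 11.69 and 11.75 in shTNC. All shTNC arrays were below all shControl arrays, and the difference was -0.36 ± 0.10 (-0.60 to -0.13, adjusted p = 0.25), a change of -22.3% on the linear scale. Both further Abca1 probe sets had the same order. Probe set 1450392_at read 10.59, 10.79 and 10.40 in shControl and 9.93, 9.75 and 10.15 in shTNC, a difference of -0.65 ± 0.14 (adjusted p = 0.20). Probe set 1421839_at read 10.01, 10.27 and 9.90 in shControl and 9.49, 9.80 and 9.29 in shTNC, a difference of -0.53 ± 0.15 (adjusted p = 0.26). Each of the 3 had non-overlapping groups, and none passed the adjusted threshold.

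The Abca1 difference did not rest on 1 array: leaving out any of the 6 gave values from -0.42 to -0.28 for the probe set used, from -0.75 to -0.55 for 1450392_at and from -0.67 to -0.41 for 1421839_at, each at an unadjusted p under 0.05. Macrophages also express Abca1. Cells with CD45 or CD11b, which macrophages carry, were removed in the sort. Of the 10 macrophage and monocyte markers, Mrc1 (-0.62), Chil3 (-0.69, groups overlapping) and Cd14 (-0.32) were lower in shTNC at an unadjusted p under 0.05. Lyz2 differed by -0.12 ± 0.23, Csf1r by -0.11 ± 0.10 and Cd68 by -0.085 ± 0.12, and Ccr2, near background, by 0.40 ± 0.29. The part of macrophage RNA in the Abca1 difference was not tested.

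The other genes of the LXR arm did not share one direction. Abcg1, which exports cholesterol to high-density lipoprotein, was at 12.68, 12.42 and 12.52 in shControl and at 12.63, 12.62 and 12.63 in shTNC on the probe set used. The shTNC arrays lay inside the shControl range, with a difference of 0.089 ± 0.094 (-0.13 to 0.31). Its second probe set, 1455221_at, read 10.76, 10.71 and 10.54 in shControl and 10.42, 10.48 and 10.38 in shTNC. There the groups did not overlap, and the difference was -0.25 ± 0.09 (adjusted p = 0.33), so the sign for Abcg1 depended on the probe set. When 1 array was left out, the unadjusted p of this probe set was over 0.05 without shControl 1, shControl 2, shTNC 1 or shTNC 3, with differences of -0.31 to -0.20.

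Nr1h3, which encodes LXR alpha, was at 10.18, 9.96 and 9.77 in shControl and at 10.11, 10.05 and 9.90 in shTNC. The groups overlapped, with a difference of 0.051 ± 0.12 (-0.23 to 0.33). Mylip, an LXR target that marks lipoprotein receptors for degradation, was at 10.98, 11.13 and 10.77 in shControl and at 10.75, 11.05 and 10.81 in shTNC, a difference of -0.092 ± 0.12 (-0.38 to 0.20).

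**Figure D4:**
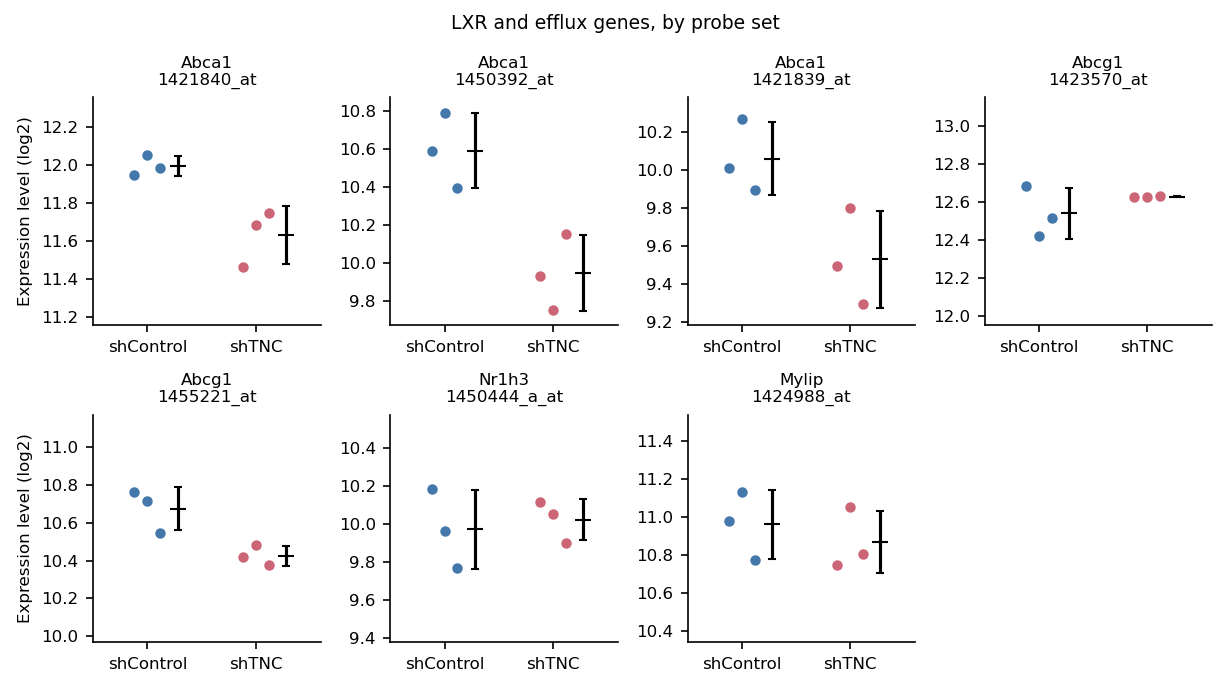
Log2 expression level (y axis, the same span of units in each panel) of each probe set of Abca1, Abcg1, Nr1h3 and Mylip on the 3 shControl and 3 shTNC arrays (points), with the mean and SD of each group in black. The shTNC arrays are below the shControl arrays for all 3 Abca1 probe sets and for 1 of the 2 Abcg1 probe sets.

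LXR binds DNA with a retinoid X receptor partner at a pair of half-sites set 4 bases apart (DR4). Searched as 2 copies of NGGTNA with a 4-base spacer on both strands, this element was found in 2 of the 25 genes with a window, Abca1 and Srebf1, against 0.707% of all genes. The Abca1 window (chr4:53159896-53160145, minus strand, GRCm38.p6) is shown for this element, in capitals 67 to 52 bases before the start, and for an E-box in capitals further upstream. Nr1h3 and Mylip had no match in their windows.
Abca1 promoter: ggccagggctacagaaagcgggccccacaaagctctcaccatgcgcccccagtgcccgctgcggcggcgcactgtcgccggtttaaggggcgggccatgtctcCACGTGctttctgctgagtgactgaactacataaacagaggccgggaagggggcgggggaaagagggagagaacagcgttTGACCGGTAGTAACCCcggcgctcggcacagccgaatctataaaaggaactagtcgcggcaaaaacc

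Beyond the 32 genes, 63 of 68 further genes of sterol sensing, esterification and transport, oxysterol synthesis, lipoprotein uptake, LXR signalling, fatty acid synthesis and the isoprenoid branch were measured. Their median difference was -0.028, against -0.030 over all genes. By value 37 (58.7%) were lower and 26 higher, where 58.3% of all genes were lower. At an unadjusted p under 0.05, 2 were lower (Gramd1b and Lrp5) and 3 higher (Rxrb, Lbr and Osbpl2), against 7.12% lower and 4.54% higher of all genes, and none passed the adjusted threshold. These counts do not set the further genes apart from that background, and the 5 are described for their values.

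Gramd1b, which encodes an Aster protein that moves cholesterol from the plasma membrane to the ER, was at 11.68, 11.60 and 11.56 in shControl and at 11.12, 11.18 and 10.79 in shTNC. The groups were well apart, with a difference of -0.58 ± 0.12 (-0.85 to -0.31, adjusted p = 0.20), a change of -33.2% on the linear scale. The value stayed between -0.66 and -0.46 with any 1 array left out, and a second probe set, 1435229_at, gave -0.28 ± 0.12 with values of 9.87, 10.04 and 9.93 against 9.83, 9.72 and 9.45. That probe set ran from -0.36 to -0.17 (without shTNC 3) with 1 array left out, and its unadjusted p was over 0.05 in every such fit but the one without shTNC 1. Lrp5, a Wnt coreceptor of the lipoprotein receptor family, was lower by a smaller amount, -0.21 ± 0.08, with shControl arrays at 11.75, 11.77 and 11.74 and shTNC arrays at 11.58, 11.54 and 11.52. Its unadjusted p was over 0.05 without any 1 array other than shControl 3.

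Rxrb, a retinoid X receptor that pairs with LXR, was at 10.45, 10.69 and 10.49 in shControl and at 10.93, 10.92 and 10.79 in shTNC. All shTNC arrays were higher, by 0.34 ± 0.10 (adjusted p = 0.27). Lbr, the lamin B receptor, whose membrane part is a sterol reductase, was at 12.15, 12.05 and 12.05 in shControl and at 12.27, 12.40 and 12.36 in shTNC, a difference of 0.26 ± 0.09 (adjusted p = 0.29). Osbpl2, a lipid transfer protein, differed by 0.21 ± 0.09 (adjusted p = 0.36). Leaving out shTNC 2 put the unadjusted p of Lbr and Osbpl2 over 0.05, as did leaving out shControl 2, shTNC 1 or shTNC 3 for Osbpl2, and no array did so for Gramd1b (1435402_at) or Rxrb.

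**Figure D5:**
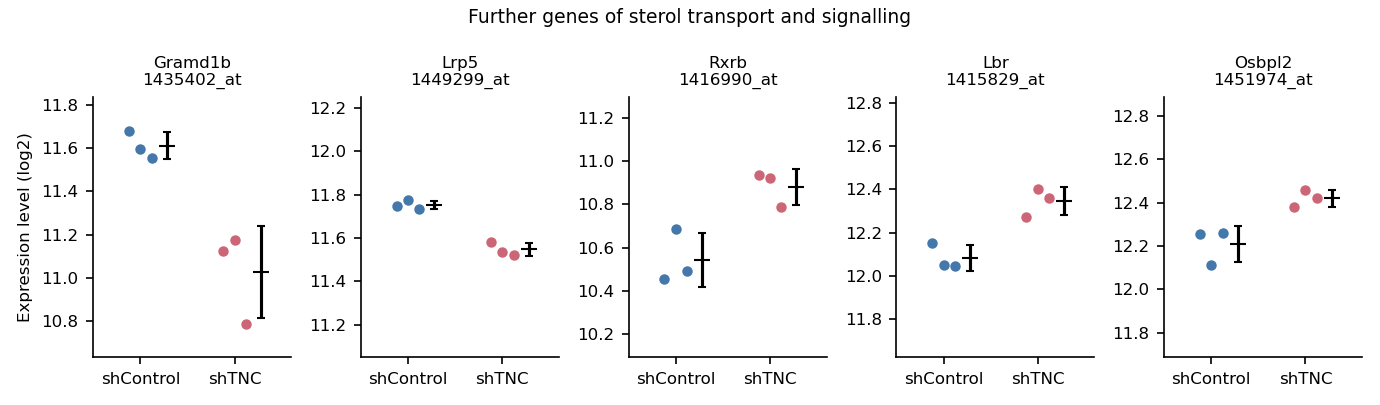
Log2 expression level (y axis, the same span of units in each panel) of the 5 further sterol genes with an unadjusted p under 0.05 on the 3 shControl and 3 shTNC arrays (points), with the mean and SD of each group in black. The groups do not overlap in any panel.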

How the data were processed

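Mouse lung ECs, 3 shControl and 3 shTNC samples, were measured on Affymetrix Mouse Genome arrays, starting from 2 ng of total RNA. Per the labels and methods, the authors normalized the arrays by RMA in Chipster and deposited 1 log2 value for each of 45101 probe sets. Raw array files were not analysed here. Gene symbols came from the platform annotation, which gave 34958 probe sets 1 symbol, 932 several and 9211 none.

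All probe sets were fitted in limma 3.58.1 (R 4.3.3; lmFit and eBayes, group means, no covariate), with Benjamini-Hochberg adjustment over all of them and a threshold of 0.05. For each gene, the probe set used was the one of highest mean among those carrying its symbol alone. A probe set counted as near background when its mean fell below a cutoff taken from 44 probe sets for olfactory receptors (their 95th percentile), which 67.2% of the array exceeded. The scripts were tested on simulated data. With 3 arrays per group, the number of arrays limits the precision. A marker list's summed level is the log2 of the sum of its linear values. Motifs were searched in RefSeq promoter windows, which were found for 25 of the 32 genes. Fdps, Fdft1, Sqle, Stard4, Scarb1, Npc1 and Abcg1 were left out of that search. All 32 genes could be named. Values for each array are given for those with an unadjusted p under 0.05, those with groups that did not overlap and fixed genes of each role. Outside this rule, they are also given for Mvk, Dhcr7 and Mylip. The members, lists and rules were chosen with earlier results of these data known. The 14 alternatives changed the normalization, the variance model, the probe sets, the pairing or the arrays included.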

Additional observations from a re-analysis of the deposited data

How the results depend on the processing

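No cholesterol gene passed an adjusted p under 0.05 in any of the 14 alternatives, where the smallest adjusted p among them was 0.11 (intensity trend and robust variance). Abca1 was lower in shTNC at an unadjusted p under 0.05 in all 14, with differences of -0.51 to -0.28 and adjusted p-values of 0.11 to 0.48. The count of genes higher at an unadjusted p under 0.05 was 0 after centring the arrays on their median, 2 with the intensity trend and robust variance (Nsdhl and Srebf2), and from 0 to 3 when 1 array was left out (3 without shControl replicate 3: Fdps, Nsdhl and Srebf2). The count of lower genes went from 1 to 2 when 1 array was left out (Mvk was added without shControl replicate 1, Dhcr7 without shTNC replicate 1). Over the alternatives, the median difference ran from -0.0074 to 0.069 for the 30 genes, from -0.016 to 0.087 for the mevalonate enzymes, from 0.012 to 0.13 for the post-squalene enzymes, from -0.015 to 0.11 for the SREBP system, from -0.043 to -0.0084 for the uptake genes and from -0.12 to 0.037 for the LXR and efflux genes. The values below 0 for the 30 genes, the mevalonate enzymes and the SREBP system came without shControl replicate 2. The LXR and efflux median was above 0 without shControl replicate 1, shControl replicate 2 or shTNC replicate 3. With 3 arrays per group, the intervals of single genes do not separate small differences from 0.

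Of the 30 genes, 17 kept 1 sign throughout and 13 turned in at least 1 alternative. Array weights gave -0.0068 for Idi1. The mean of all probe sets gave -0.00043 for Fdft1, 0.076 for Cyp51, 0.027 for Stard4 and -0.080 for Abcg1, and probe sets without _x_at or _s_at endings gave 0.046 for Hsd17b7. With 1 array left out at a time, differences ran from -0.30 to 0.15 for Cyp51, from -0.033 to 0.026 for Stard4, from -0.016 to 0.11 for Hmgcs1, from -0.045 to 0.055 for Idi1, from -0.0059 to 0.087 for Fdft1, from -0.054 to 0.27 for Msmo1, from -0.0075 to 0.44 for Insig1, from -0.15 to 0.051 for Scap, from -0.051 to 0.16 for Nr1h3, from -0.076 to 0.0070 for Ebp and from -0.0036 to 0.18 for Lss. Hmgcs1 (-0.016), Idi1 (-0.045), Msmo1 (-0.054) and Insig1 (-0.0075) had these lowest values without shControl 2, the array on which each was lowest. The cause of the low values on that array, and of the other turns, was not tested.

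With the replicate number as a block, 1 gene was lower (Abca1) and 0 were higher at an unadjusted p under 0.05 in limma, and no adjusted call changed. The deviations of same-numbered arrays correlated at -0.085, 0.041 and 0.10 over probe sets, and those of differently numbered arrays at -0.11 to 0.074. With 3 arrays per group, these values cannot decide whether same-numbered arrays were paired.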

Other observations

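Of the 12 fatty acid synthesis genes that SREBPs also regulate, none was lower or higher in shTNC at an unadjusted p under 0.05 in limma on the probe set used. Of all genes, 7.12% were lower and 4.54% higher by that rule. The median difference of the 12 was -0.077, against -0.030 over all genes. Of their 14 other probe sets above background, 3 had an unadjusted p under 0.05 in limma, none an adjusted p under 0.05: Elovl6 1417403_at (-0.35 ± 0.09, adjusted p = 0.24), Scd2 1415823_at (-0.46 ± 0.17, adjusted p = 0.32) and Acss2 1446542_at (0.41 ± 0.10, adjusted p = 0.23). The share of all such other probe sets was not computed, so the 3 are described for their values. Scd1, a stearoyl-CoA desaturase, was at 10.27, 10.22 and 11.09 in shControl and at 10.67, 9.84 and 10.89 in shTNC, so its spread within each group was wider than the difference of -0.062 ± 0.31 (SE, n = 3 per group). Its highest arrays were shControl 3 and shTNC 3 and its lowest was shTNC 2. Fasn, Acaca, Acly, Scd2, Elovl6 and Fads2 were, like Scd1, highest on shControl 3 and lowest on shTNC 2. Elovl5, Fads1, Acss2, Me1 and Pnpla3 did not have this pair of arrays. Sftpc, surfactant protein C of alveolar epithelium, had its highest levels on shControl 3 and shTNC 3 and its lowest on shTNC 2. It was at 13.01, 12.95 and 13.41 in shControl and at 13.16, 12.09 and 13.46 in shTNC. The epithelial markers did not all share this order. Sftpb, Sftpa1 and Cdh1 were also lowest on shTNC 2, but Epcam, Krt8, Krt18 and Scgb1a1 were lowest on shControl 1 and Abca3 on shTNC 1. EpCAM-positive cells were removed in the sort, and the part of epithelial RNA in the Scd1 values was not tested.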
